A study of Mus musculus with 8 samples.

Results

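Slfn4, Slfn10-ps, Apobec3 and Zcchc3 are 4 genes, grouped here under antiviral defence. They were picked by name from the 119 genes in the deposited small intestinal (SI) expression table. Each name matched exactly 1 row. The table held only genes that the authors had already selected as differing between genotypes, so all 4 had passed the authors' selection on these same libraries. RNA-seq had been done on whole SI tissue of C57BL/6 males, in 4 libraries labelled wild type (WT) and 4 labelled Vil-Cre mediated KO (KO). In KO mice, Cre recombinase driven by the Villin promoter removed loxP-flanked exons of Smarcad1, a chromatin remodeler, from the intestinal epithelium. The floxed line came from a single targeted embryonic stem cell clone. The promoter targets epithelial cells, so the immune, stromal and muscle cells in the whole tissue were not targeted. The age of the mice, and whether WT mice carried floxed alleles, were not given in the sources used here. No source says that each library came from a separate mouse, so the p-values measure the spread between these libraries, which may in part be technical.

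Cells meet viruses and mobile elements with sensors that recognise foreign or misplaced nucleic acid, with interferons that carry the alarm, and with effector proteins that interferons induce. Zcchc3 is a zinc finger protein that helps the DNA sensor cGAS and the RIG-I-like RNA sensors to bind nucleic acid. Apobec3 is a cytidine deaminase that restricts retroviruses and endogenous retroelements. Slfn4 belongs to the Schlafen family, a group of interferon-linked genes with roles in immune cell growth and in RNA metabolism, and is best known from myeloid cells. Slfn10-ps is annotated as a transcribed unprocessed pseudogene of the same family.

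All positions are in mouse build GRCm38. Slfn4 (ENSMUSG00000000204.16) lies on chromosome 11, 83175186 to 83190221, on the plus strand, and Slfn10-ps (ENSMUSG00000072621.13) lies on the same chromosome, 83028130 to 83040042, on the minus strand. Both sit in a cluster of 9 Schlafen genes that spans 335.4 kb, and they are separated by 135.1 kb that holds the protein-coding genes Slfn1 and Slfn2. Apobec3 (ENSMUSG00000009585.18) lies on chromosome 15, 79891659 to 79915906, on the plus strand. Zcchc3 (ENSMUSG00000074682.4) lies on chromosome 2, 152411956 to 152415044, on the minus strand. GENCODE merges the transcripts of Slfn4 into 8 exons, those of Slfn10-ps into 5 and those of Apobec3 into 10, while Zcchc3 is a single exon that fills 99.5% of its span.

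**Figure D1:**
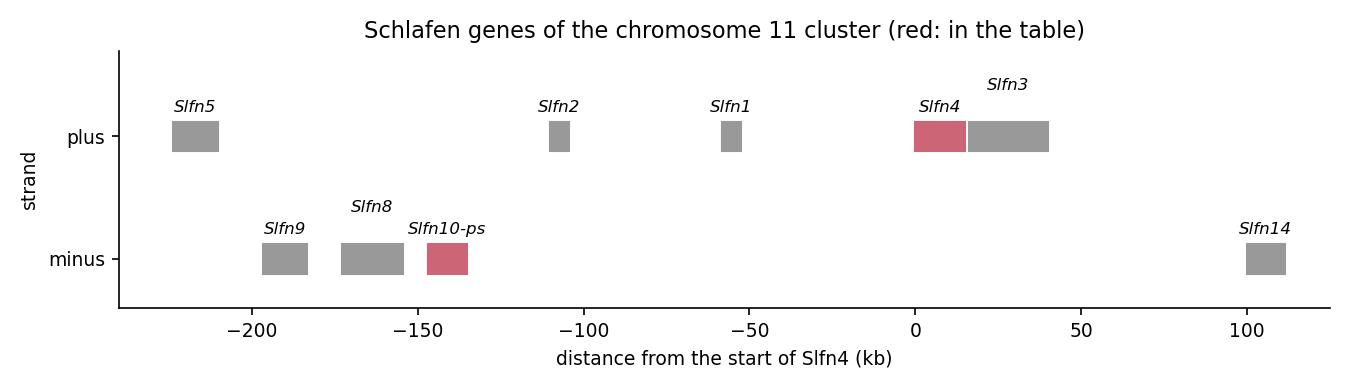
Map of the 9 Schlafen genes on chromosome 11, with the distance from the start of Slfn4 in kb on the x axis and the strand on the y axis. Slfn4 and Slfn10-ps, in red, are the family members with a row in the table, and the other 7, in gray, have none.

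To show the DNA just upstream of the members, the 250 bases before the RefSeq start site were searched on both strands for the interferon-stimulated response element core (GAAA, any 2 bases, GAAA), the composite ETS-IRF element (GGAA, any 2 bases, GAAA) and the gamma-activated site TTCNNNGAA. The composite element differs from the core in its second letter alone. Slfn4 and Zcchc3 are printed because they are the protein-coding members with more RNA in KO, and a stretch of 30 bases of Apobec3 because it holds a match. Capitals mark the match, and Slfn4 had none. The windows are chr11:83174936-83175185 (plus strand), chr2:152415045-152415294 (minus strand) and chr15:79892258-79892287 (plus strand), from RefSeq, build GRCm38.p6.
Slfn4: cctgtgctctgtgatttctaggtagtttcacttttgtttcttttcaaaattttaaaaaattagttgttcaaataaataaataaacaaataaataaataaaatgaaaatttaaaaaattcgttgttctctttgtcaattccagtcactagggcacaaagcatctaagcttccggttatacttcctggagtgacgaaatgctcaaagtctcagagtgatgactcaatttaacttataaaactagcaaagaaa
Zcchc3: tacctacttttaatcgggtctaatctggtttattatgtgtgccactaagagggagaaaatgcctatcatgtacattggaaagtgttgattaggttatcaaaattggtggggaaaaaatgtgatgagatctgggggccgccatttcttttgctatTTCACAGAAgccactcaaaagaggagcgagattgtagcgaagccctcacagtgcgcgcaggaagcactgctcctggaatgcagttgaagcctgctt
Apobec3: catcagttagTTTCCCTTTCtctttgcgat

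The window of Apobec3 held 1 match to the interferon response core, 140 to 131 bases before the start site at 79892408, and that of Zcchc3 held 1 gamma-activated site, 96 to 88 bases before its start. Of 32851 mouse promoter windows of this length, 2.98% held the core, 2.30% the composite element and 7.02% the gamma-activated site. The other RefSeq start site of Apobec3, at 79895023, and Slfn4 held none of these letters. GENCODE starts Apobec3 further upstream, so the first Apobec3 window lies inside an annotated exon in that annotation. The Slfn4 window was 29.6% G and C, lower than in all but 1.30% of promoter windows, whose median was 52.4%. Slfn10-ps has no entry in the promoter table.

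The values are RPKM, a read count divided by gene length and by how many reads the library had mapped. Whole reads, to within 0.05 of a read, could be recovered from each of the 939 values above 0, which gave, to within a few reads, 56981719 to 70345517 mapped reads per WT library and 58634589 to 78026421 per KO library. The kilobases were those of the genomic span, introns included. The targeted gene Smarcad1 was 29.5% lower in KO, with no overlap between the groups (p = 0.0286 by a two-sided exact permutation test, which cannot give less with 4 libraries a group). Of the 119 genes, 79.0% had a limma adjusted p under 0.05 (48.7% higher and 30.3% lower in KO), and in 71.4% the groups did not overlap (48.7% higher and 22.7% lower). All 4 members passed both criteria, 3 higher and 1 lower in KO, a share that has to be read against these high backgrounds. Because the authors had chosen the genes on the same libraries, these tests describe size and spread and are not independent evidence of a difference. Scaling also bears on the directions over the table. The 58 higher and 36 lower calls became 41 and 57 when the library medians over these 119 genes were set equal. That step moved KO by -0.22 (log2) relative to WT. Its medians come from selected genes alone, so it cannot show whether the libraries were unevenly scaled.

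Slfn4 had the largest change of the 4. Its levels were 0.344, 0.448, 0.539 and 0.481 RPKM in WT libraries 1 to 4. In KO libraries 1 to 4 they were 1.48, 1.35, 1.08 and 2.08 RPKM. In bulk tissue, a change in the number of cells of a type and a change in RNA per cell cannot be told apart. This holds for Slfn4 and for all values below. The lowest KO library held 0.543 RPKM more than the highest WT library. The mean was 3.30-fold higher in KO, at 1.5 ± 0.420 RPKM against 0.453 ± 0.0819 RPKM (SD, n = 4 each), and the ratio was 2.88 to 3.61 with any 1 library left out. On the log2(RPKM + 0.1) scale the rise was 1.51 ± 0.19 (SE, limma adjusted p = 3.39e-04), and 0.77 with a pseudocount of 1. Slfn4 had place 5 by size among the 59 genes higher in KO, whose median change was 0.72. Between 295 and 513 reads per WT library and between 992 and 2435 reads per KO library stood behind these values.

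Slfn10-ps, the pseudogene 135.1 kb away from Slfn4, was also higher in KO but from a far lower level. WT libraries 1 to 4 had 0.0324, 0.0534, 0.0518 and 0.0418 RPKM. KO libraries 1 to 4 had 0.10, 0.0816, 0.101 and 0.143 RPKM. The groups did not overlap, and the mean rose 2.37-fold, from 0.0448 ± 0.00976 to 0.106 ± 0.0260 RPKM (SD, n = 4 each). Only 22 to 39 reads per WT library and 57 to 133 per KO library lay in this gene. The levels lay around the pseudocount of 0.1, below it in all WT libraries and in KO library 2, and the log2 change varied with the pseudocount: 0.50 ± 0.12 at 0.1 (SE, limma adjusted p = 0.00450), 1.08 ± 0.19 at 0.01 and 0.08 ± 0.03 at 1, all with an adjusted p under 0.05. Voom on the recovered reads, which takes its offset in reads and not in RPKM, gave 1.25 ± 0.35 (SE, limma adjusted p = 0.00391). With equal library medians the change was 0.28 and no longer passed (limma adjusted p = 0.0530).

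The Schlafen pair shared its extremes but not the order of the libraries between them. WT library 1 was the lowest and KO library 4 the highest for both genes, whereas KO library 3 was the lowest KO library for Slfn4 and the next to highest for Slfn10-ps. WT library 2 was the highest WT library for Slfn10-ps and the next to lowest for Slfn4. For Slfn10-ps these places were close. KO libraries 3 and 1 had 0.101 and 0.10 RPKM, on 73 and 88 reads. WT libraries 2 and 3 had 0.0534 and 0.0518 RPKM, on 37 and 39 reads. Per kilobase of merged exons, Slfn4 held 9.68 to 13.3 times the level of Slfn10-ps in WT and 12.4 to 19.1 times in KO, ranges that overlap. Across the 8 libraries their log2(RPKM + 0.1) values had a Pearson r of 0.96, and the deviations from the group means had an r of 0.77, both given as a description because the values share their libraries and depth. Of the 10 Schlafen genes on the list, these 2 were in the table, both called higher, as were 48.7% of all 119 genes. Their median change was 1.01, against -0.07 over all 119 genes and 0.72 among the 59 higher in KO (log2). The other 8, among them Slfn3, which starts just beyond the end of Slfn4, were not analysed here.

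Schlafen genes resemble each other, which matters because only uniquely mapped reads were counted. Of all stretches of 50 bases in Slfn4 transcripts, 11.3% also occur in transcripts of other genes, most often of Slfn3 (6.28%). For Slfn10-ps the share was 19.7%, most often with Slfn9 (13.5%). For stretches of 100 bases the shares fell to 0.271% and 7.84%. The levels of both genes, and of Slfn10-ps above all, are therefore uncertain by the reads that could not be placed. The annotated span of Slfn10-ps also holds a microRNA gene, Gm27598, on its own strand and a processed pseudogene, Gm48434, on the other.

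**Figure D2:**
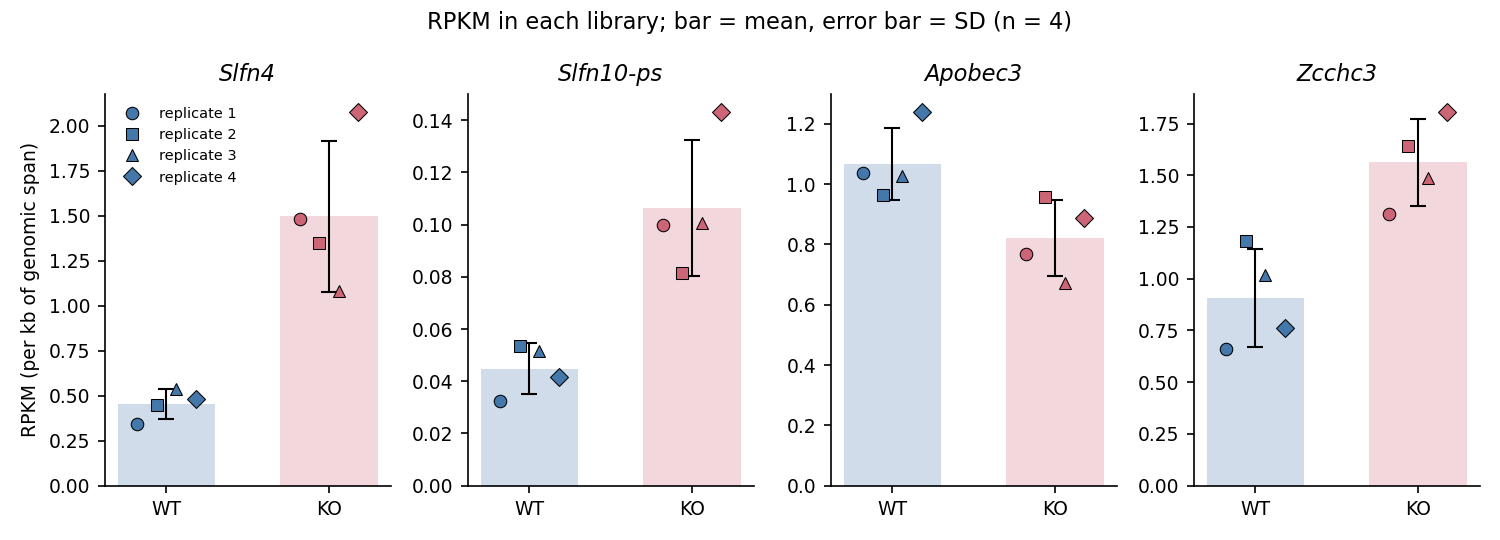
RPKM per kilobase of genomic span (y axis) of each gene in the 4 WT and 4 KO libraries. Points are libraries with 1 symbol per replicate number, bars are means and error bars are SD. Slfn4, Slfn10-ps and Zcchc3 lie higher in all KO libraries, and in Apobec3 the highest KO point (0.957) lies just under the lowest WT point (0.964).

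Zcchc3, the sensing cofactor, was higher in KO by a smaller factor. Its levels were 0.659, 1.18, 1.02 and 0.764 RPKM in WT libraries 1 to 4. In KO libraries 1 to 4 they were 1.31, 1.64, 1.49 and 1.80 RPKM. The groups did not overlap, with 0.134 RPKM between WT library 2, the highest of its group, and KO library 1, the lowest of its group. The mean rose 1.72-fold, from 0.906 ± 0.238 to 1.56 ± 0.209 RPKM (SD, n = 4 each), with 116 to 212 reads per WT library and 280 to 435 per KO library. On the log2(RPKM + 0.1) scale the rise was 0.75 ± 0.18 (SE, limma adjusted p = 0.00496), close to the median of 0.72 among the 59 higher genes, and 0.43 with a pseudocount of 1. Leaving out any 1 library gave 0.62 to 0.87. Of its stretches of 50 bases, 1.79% occur in another transcript, and none of 100 bases do.

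Of the nucleic acid sensing list, which holds cGAS, STING, the RIG-I-like receptors, endosomal Toll-like receptors and their adaptors, 2 of 26 names were in the table, with a few genes listed under an older and a newer name. These were Zcchc3 and Wdfy1, an adaptor that links Toll-like receptors to their signalling partner, and both were called higher, as were 48.7% of all 119 genes, with a median change of 0.94 against 0.72 among the 59 genes higher in KO (log2). Wdfy1 rose 2.56-fold and was higher in every KO library (0.684 to 1.02 RPKM) than in any WT library (0.260 to 0.440 RPKM).

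Depth and level shared their extremes, and in part their order. WT library 1, the lowest for Slfn4, Slfn10-ps and Zcchc3, had the fewest mapped reads of all 8 libraries, and KO library 4, the highest for all 3, had the most. Within each group, Slfn4 came closest to the order of depth. There only WT libraries 3 and 4, and KO libraries 2 and 3, stood the other way round. Across the groups the orders differed. KO libraries 2 and 3 had fewer mapped reads than WT libraries 3 and 4, but higher levels of all 3 genes. Zcchc3 and Slfn10-ps followed the order of depth less. KO library 1 was the next deepest of all and the lowest KO library for Zcchc3. WT library 4, the deepest of WT, was next to lowest in WT for Zcchc3 and Slfn10-ps. Without WT library 1 the changes were 1.40, 0.46 and 0.62 (log2) for Slfn4, Slfn10-ps and Zcchc3. Without KO library 4 they were 1.35, 0.42 and 0.68, and each kept a limma adjusted p under 0.05 in both fits. The part of depth in the result was not tested.

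Apobec3, the retroelement restriction factor, was the member with less RNA in KO, and its groups only just separated. WT libraries 1 to 4 had 1.04, 0.964, 1.03 and 1.24 RPKM. KO libraries 1 to 4 had 0.769, 0.957, 0.674 and 0.886 RPKM. WT library 2 and KO library 2 differed by 0.00686 RPKM, which was the whole gap between the groups. The mean fell by 23.0%, from 1.07 ± 0.119 to 0.822 ± 0.125 RPKM (SD, n = 4 each), on 1359 to 2113 reads per WT library and 995 to 1677 per KO library. The change was -0.35 ± 0.13 on the log2(RPKM + 0.1) scale (SE, limma adjusted p = 0.0316), near the median of -0.39 among the 60 genes lower in KO, and -0.18 with a pseudocount of 1. The call rested on WT library 4, KO library 1 and KO library 3: the limma adjusted p was 0.0826, 0.0722 and 0.0889 without each of them. With KO raised by 0.2 on the log2 scale the change was -0.15 and did not pass, whereas equal library medians made it -0.57 (limma adjusted p = 0.00535).

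Apobec3 shares part of its sequence with other annotated genes. Of its stretches of 50 bases, 8.84% occur in transcripts of other genes, most of them in D730005E14Rik (5.72%), which overlaps Apobec3 by 1462 bases and is annotated on the same strand. It also overlaps Cbx7, on the other strand, by 100 bases. Whether the counting used strand is not given in the sources used here, so reads from overlapping genes on either strand, those in Slfn10-ps included, may be counted with the member. Of the 19 names on the retroelement restriction list only Apobec3 was in the table. Besides the Schlafen pair, the gene of the table that starts within 1 Mb of a member is Maff, a small Maf transcription factor 544.1 kb from Apobec3. Maff had 1.23 to 2.51 RPKM in WT and 1.37 to 1.75 RPKM in KO, with overlapping groups and a change of -0.22 ± 0.19 (log2, SE, limma adjusted p = 0.283).

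**Figure D3:**
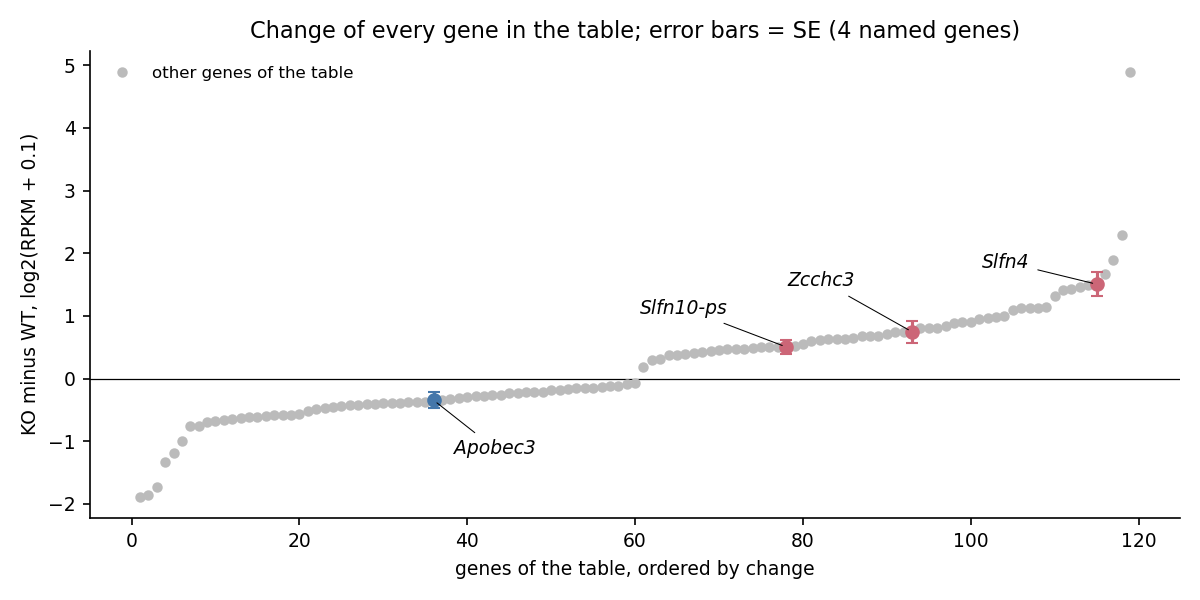
Change from WT to KO on the log2(RPKM + 0.1) scale (y axis) for all 119 genes of the table, ordered from the lowest to the highest (x axis), with SE bars on the 4 members. Slfn4, at 1.51, lies near the upper end, Zcchc3 (0.75) and Slfn10-ps (0.50) within the higher genes, and Apobec3 (-0.35) within the lower genes.

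Levels can be compared between the genes only per length, and the order depended on which length was used. Per kilobase of genomic span, Apobec3 (1.07 RPKM) and Zcchc3 (0.906 RPKM) led in WT with overlapping libraries, followed by Slfn4 and Slfn10-ps, each below all libraries of the gene before. In KO on the same scale, Zcchc3 (1.56 RPKM) and Slfn4 (1.5 RPKM) led with overlapping libraries, Apobec3 had place 3 and Slfn10-ps was last. Exons fill 26.4% of the span of Slfn4, 30.4% of Slfn10-ps and 39.0% of Apobec3, so dividing by merged exon length raised these and not Zcchc3. The study's methods state that reads were counted over exons, and if all counted reads were exonic, WT levels were 2.74 ± 0.305 for Apobec3, 1.72 ± 0.311 for Slfn4, 0.910 ± 0.239 for Zcchc3 and 0.148 ± 0.0321 for Slfn10-ps, in RPKM per kilobase of exon (SD, n = 4). On this scale none of the neighbours in the WT order overlapped.

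In KO, Slfn4 stood highest per kilobase of exon, at 5.68 ± 1.59, above every library of Apobec3, at 2.11 ± 0.322 (SD, n = 4 each). Apobec3 overlapped Zcchc3, at 1.57 ± 0.211, and Slfn10-ps was last at 0.350 ± 0.0857 (SD, n = 4 each). Within a library, the ratio of Slfn4 to Apobec3 on this scale was 0.491 to 0.776 in WT and 2.08 to 3.46 in KO. The ratio of Zcchc3 to Apobec3 was 0.242 to 0.480 in WT and 0.670 to 0.866 in KO. Neither pair of ranges overlapped. That was fixed beforehand, since every KO library was above every WT library for Slfn4 and Zcchc3, and below for Apobec3. Ratios within a library do not depend on how libraries were scaled, but these genes were selected on the same libraries.

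**Figure D4:**
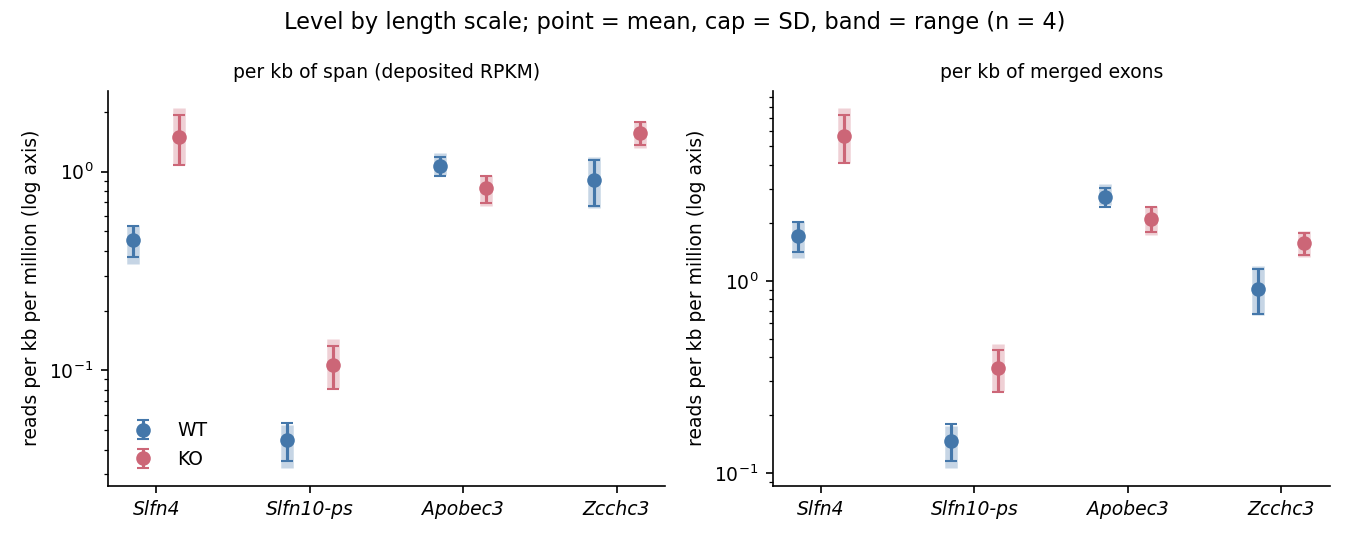
Level of the 4 genes in WT and KO in RPKM, on log axes, per kilobase of genomic span (left) and of merged exons (right). Points are means, caps are SD and bands are ranges of 4 libraries. In KO, Slfn4 (5.68) stands above Apobec3 (2.11) per kilobase of exon, and in WT Apobec3 (2.74) is the highest.

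The genes whose log2(RPKM + 0.1) followed a member most closely over the 8 libraries were named as a description, since all genes of the table were selected on genotype and share depth. For Slfn4 these were Patz1, a zinc finger transcription factor (r = 0.97), 9030619P08Rik (r = 0.96) and Pgcp, a peptidase (r = 0.96). For Slfn10-ps they were Pgcp (r = 0.97), Zfp809 (r = 0.96) and Patz1 (r = 0.95). Zfp809, a KRAB zinc finger protein known for silencing murine leukemia virus and related elements, rose 1.79-fold, from 1.59 ± 0.304 to 2.84 ± 0.315 RPKM (SD, n = 4 each).

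Zcchc3 was followed by Zfp37, a zinc finger gene (r = 0.97), Shroom1, a regulator of the cytoskeleton (r = 0.97), and Sccpdh, which is named for its likeness to saccharopine dehydrogenase (r = 0.96). With each group centred on its own mean, Zfp37 and Shroom1 still had an r of 0.97 and 0.96 with Zcchc3, and the 8 libraries stood in the same order for Zfp37 as for Zcchc3 (Spearman rho = 1.0). Zfp37 rose 2.26-fold and Shroom1 2.54-fold. By r over the 8 libraries, Apobec3 had no follower of this closeness. The nearest were Slc14a1, a urea transporter (r = 0.80), Defa20, a Paneth cell defensin (r = 0.79), and Ccdc21, a centrosome gene (r = 0.77). Within groups these values were 0.58, 0.41 and 0.28. The r within groups was computed for the named genes alone, and genes that ran opposite to a member were not named.

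Among the members, Apobec3 and the other 3 ran in opposite directions across genotypes. Within groups Apobec3 had an r of -0.05 with Zcchc3, -0.10 with Slfn10-ps and 0.45 with Slfn4. Zcchc3 had a within-group r of 0.50 with Slfn4 and 0.62 with Slfn10-ps. With 8 libraries, these values cannot show whether a relation is present or absent.

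The wider interferon pathway was looked up by name. The table held 0 of 42 interferon-stimulated genes, such as Isg15, Ifit1, Oas2, Mx1 and Rsad2, and 0 of 20 interferons, receptors and signal carriers. It also held 0 of 59 markers of myeloid, lymphoid, enterocyte, goblet, enteroendocrine, stromal and muscle cells. The table lists selected genes only, so their levels were not analysed here and the labelled tissue could not be checked against these markers. Of the Paneth cell markers, 10 of 14 were in the table, all called lower in KO, where 30.3% of the whole table was called lower (57 genes in place of 36 with equal library medians). They had a summed level of 3565 to 4984 RPKM in WT and 2870 to 3795 RPKM in KO and none at 0. Of the pancreatic acinar markers, 2 of 8 were in the table, both called lower. The part of cell composition in the member values was not tested.

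**Figure D5:**
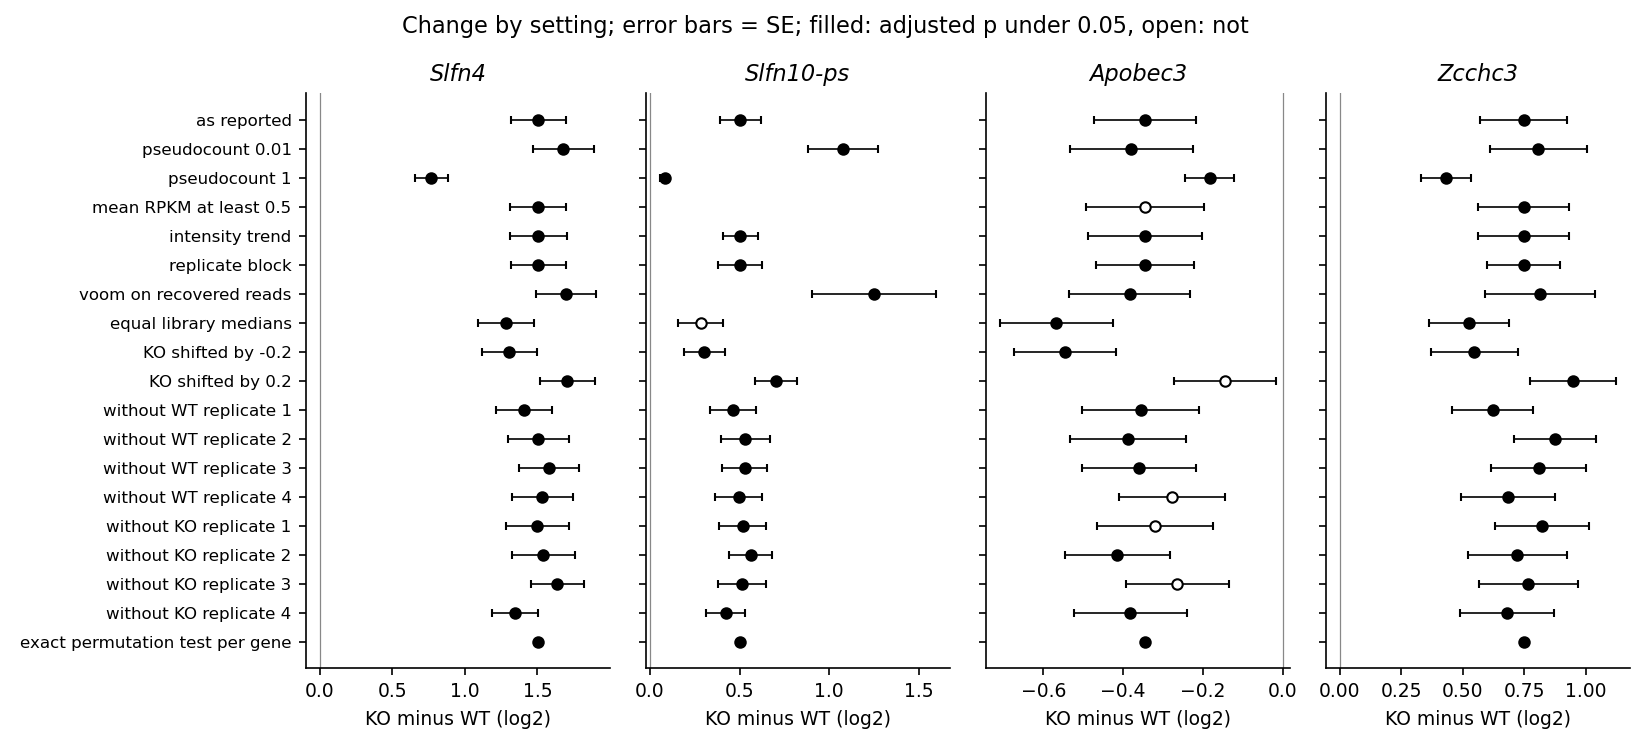
Change from WT to KO (x axis, log2, with SE bars) of each gene under each way of processing (y axis). Filled points have an adjusted p under 0.05 and open points do not. Slfn4 and Zcchc3 are filled throughout, Slfn10-ps has 1 open point and Apobec3 has 5. No direction changed, and none of these alternatives could have changed it.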

How the data were processed

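Total RNA was extracted from whole small intestine of 4 WT and 4 KO samples and profiled by mRNA-seq. Per the labels and the study's methods, the authors trimmed reads with Trim Galore 0.4.1, mapped them to GRCm38 with HISAT2 2.0.1, kept uniquely mapped reads and quantified them in SeqMonk. The deposited table gives RPKM per library, the authors' group means and the FDR-adjusted p-value of the authors' DESeq2 test. It holds only the 119 genes under an FDR of 0.05, and neither the deposited p-values nor the means were used here. RPKM were whole reads per kilobase of genomic span, scaled to mapped reads.

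The members and gene lists were chosen with earlier results of these data known. Samples were grouped by the genotype label. Differences were tested with limma 3.58.1 in R 4.3.3 on log2(RPKM + 0.1), two-sided, with Benjamini-Hochberg adjustment over all 119 genes and a threshold of 0.05, and Smarcad1 with an exact permutation test. The limma step was tested on simulated data. Genes were named by rule: Smarcad1, the 4 members, list genes in the table (cell type markers as ranges), the 3 genes most like each member by Pearson r over the 8 libraries, and genes starting within 1 Mb of a member. Alternatives were the pseudocount, a filter on low values, an intensity trend, a replicate block, voom on recovered reads, other scalings, an exact test per gene, each library left out, merged exon length for levels, and other measures of likeness. Gene models came from GENCODE M21 and promoters from RefSeq. Over 77 genes, the deviations of same-numbered samples had correlations of 0.27, 0.21, -0.11 and -0.03. Differently numbered samples were not compared, so whether the numbers pair the samples was not settled.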

Additional observations from a re-analysis of the deposited data

How the results depend on the processing

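Of 71 alternatives run for the 4 genes, 65 kept direction and call, 6 lost the call and 0 reversed. That none reversed was fixed beforehand. The groups of all 4 genes did not overlap. The shifts of KO (0.2 up or down, and -0.22 with equal library medians, log2) were smaller in size than every change. Some of the 65 could hardly have done otherwise. A shift of KO by 0.2 in a gene's own direction only enlarged its change. The exact test gave its lowest p to every gene whose groups did not overlap, as in all 4. Slfn10-ps lost the call with equal library medians (0.28, limma adjusted p = 0.0530). Apobec3 lost it among genes with a mean of at least 0.5 RPKM (-0.35, adjusted p = 0.0519), with KO raised by 0.2 (-0.15, adjusted p = 0.364), and without WT library 4 (-0.28), KO library 1 (-0.32) or KO library 3 (-0.26). Over all its alternatives its limma adjusted p was 0.00447 to 0.364. With 1 library left out, the change was 1.35 to 1.64 for Slfn4, 0.42 to 0.56 for Slfn10-ps, -0.41 to -0.26 for Apobec3 and 0.62 to 0.87 for Zcchc3 (log2). The filter at 0.5 RPKM left 77 genes, of which 56 were called and 50 had groups that did not overlap, against 94 and 85 of 119. Higher and lower calls numbered 46 and 55 with KO lowered by 0.2, 59 and 10 with KO raised by 0.2, and 28 and 28 under the filter. The groups overlapped for Slfn10-ps and Zcchc3 with equal library medians, for Zcchc3 with KO lowered by 0.2 and for Apobec3 with KO raised by 0.2.

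A fit with the replicate number as a block called 90 genes, all 90 among the 94, and kept the calls of the 4 genes (Apobec3 limma adjusted p = 0.0422). Whether the numbers pair the samples was not settled. Per kilobase of exon in place of span, Slfn4 moved from place 3 to 2 in WT and from 2 to 1 in KO, Zcchc3 from 2 to 3 in WT and from 1 to 3 in KO, and Apobec3 from 3 to 2 in KO. The r within groups and the Spearman rho were 0.82 and 0.93 for Slfn4 with Patz1, 0.88 and 0.83 for Slfn10-ps with Pgcp, 0.58 and 0.88 for Apobec3 with Slc14a1, and 0.97 and 1.0 for Zcchc3 with Zfp37. Depth limits Slfn10-ps most, with 22 to 133 reads per library. The part of counting error in its spread was not tested.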
